A study of Mus musculus with 4 samples.

Results

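The sodium pump is the membrane protein that moves sodium out of the cell and potassium into it, and 7 of its subunit and regulator genes were followed here in sorted cells of the mouse retina. They are Fxyd1, Fxyd2, Fxyd5, Fxyd6 and Fxyd7, which encode small regulators of the pump, and Atp1b1 and Atp1b2, which encode beta subunits. They were taken by gene symbol, with earlier results of these data known, and are 7 of the 21830 genes analyzed. All 7 had a line in each of the 4 tables.

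The libraries came from pHes1-EGFP transgenic mice, in which a fragment of the Hes1 promoter drives a destabilized EGFP. The labels give the strain as FVB/N and no treatment, while the study's methods name ICR mice and no strain for the transgenic line. Retinas of postnatal day 1 (P1) and day 4 (P4) pups were dissociated and sorted into EGFP-positive cells (pHes1_EPCs) and EGFP-negative cells (pHes1_ENCs). This gave 4 groups, P1 pHes1_ENC, P1 pHes1_EPC, P4 pHes1_ENC and P4 pHes1_EPC, with 1 library in each. All 4 groups carried the transgene, so a fraction is a set of cells gated by the activity of one promoter fragment, not a purified cell type. The reporter is known to be active in nearly all Müller glia after birth, and in the central but not the peripheral retina. With 1 library per group there is no replicate check, no test was possible, and differences between libraries and between groups cannot be told apart. Values are given with the 95% interval that Cufflinks attached to each, which covers counting error only.

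Levels are in FPKM, read counts that Cufflinks scaled for transcript length and sequencing depth, so they may be set side by side between genes. Differences are on the log2(FPKM + 1) scale, which understates the change of low genes, and a gene was counted as past 2-fold when its difference was above 1 or below -1. The tables hold no read counts. Low genes whose FPKM differ by 1 shared ratio put the depth of the other libraries at 92.6% to 95.4% of that of P1 pHes1_ENC, while the absolute depth is unknown.

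The catalytic alpha subunit of the pump binds and moves the ions, and the beta subunit is needed for it to fold and reach the plasma membrane. Proteins of the FXYD family, named after a conserved stretch of amino acids, cross the membrane once, sit beside the alpha and beta subunits and adjust the affinity and speed of the pump. In the retina, photoreceptors spend much of their energy on the pump of their inner segments, and Müller glia, the radial glia that span the retina, use the sodium gradient to take up glutamate and GABA and help to clear potassium.

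The fractions were first checked against marker genes. Of 11 Müller glia markers, 9 at P1 and 10 at P4 were past 2-fold higher in pHes1_EPCs, and their summed level was 510 FPKM in P1 pHes1_ENCs, 1535 in P1 pHes1_EPCs, 361 in P4 pHes1_ENCs and 3034 in P4 pHes1_EPCs. Aqp4, the water channel of mature Müller glia, was at most 0.395 FPKM in any library. The 8 retinal progenitor markers were higher in pHes1_EPCs past 2-fold in 7 cases at P1 and in 8 at P4, so the fraction held progenitor transcripts as well as glial ones. Of 9 rod markers, 8 at P1 and 9 at P4 were past 2-fold lower in pHes1_EPCs, with summed levels of 704, 43.6, 4123 and 780 FPKM in the same order of libraries. In bulk samples of this kind, fewer cells of a type and less RNA per cell cannot be told apart.

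Of the 7 members, 2 were past 2-fold higher in pHes1_EPCs at P1, Fxyd1 and Fxyd7, where 6.1% of all genes were, and 2 were past 2-fold lower, Atp1b1 and Atp1b2, where 6.79% were. At P4, Fxyd6 joined Fxyd1 and Fxyd7 on the higher side, 3 of 7 against 9.85% of all genes, and Atp1b2 alone was past 2-fold lower, 1 of 7 against 5.42%. By the looser rule that the Cufflinks intervals of the fractions do not overlap, Fxyd1, Fxyd6 and Fxyd7 were higher in pHes1_EPCs at both ages, where 22.1% of all genes were at P1 and 28.3% at P4. By that rule Atp1b1 and Atp1b2 were higher in pHes1_ENCs at both ages, where 21.8% and 18.6% of all genes were. Fxyd2 and Fxyd5 did not reach 1 FPKM in any library.

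**Figure D1:**
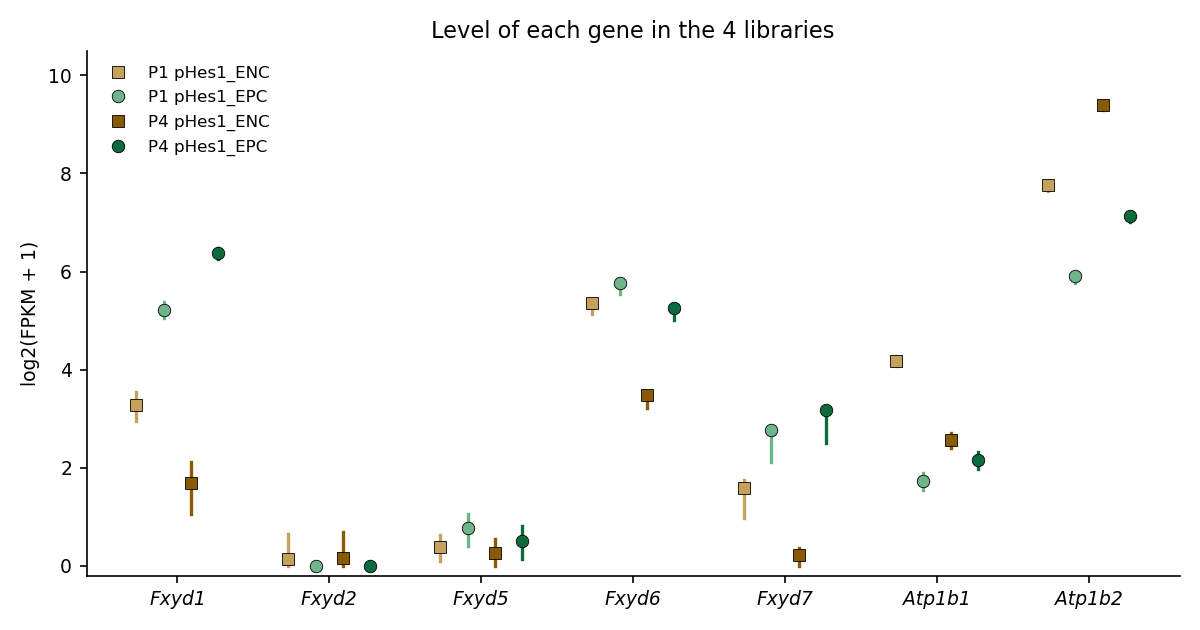
The plot gives the level of each gene as log2(FPKM + 1), with squares for pHes1_ENCs, circles for pHes1_EPCs, light symbols for P1 and dark symbols for P4, 1 library each. Vertical lines are Cufflinks 95% intervals, and 8 of the 28 values lie above their own interval. The P4 circle of Fxyd1, at 81.9 FPKM, stands far above its P4 square at 2.20 FPKM, and the squares of Atp1b2 stand above its circles at both ages.

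**Figure D2:**
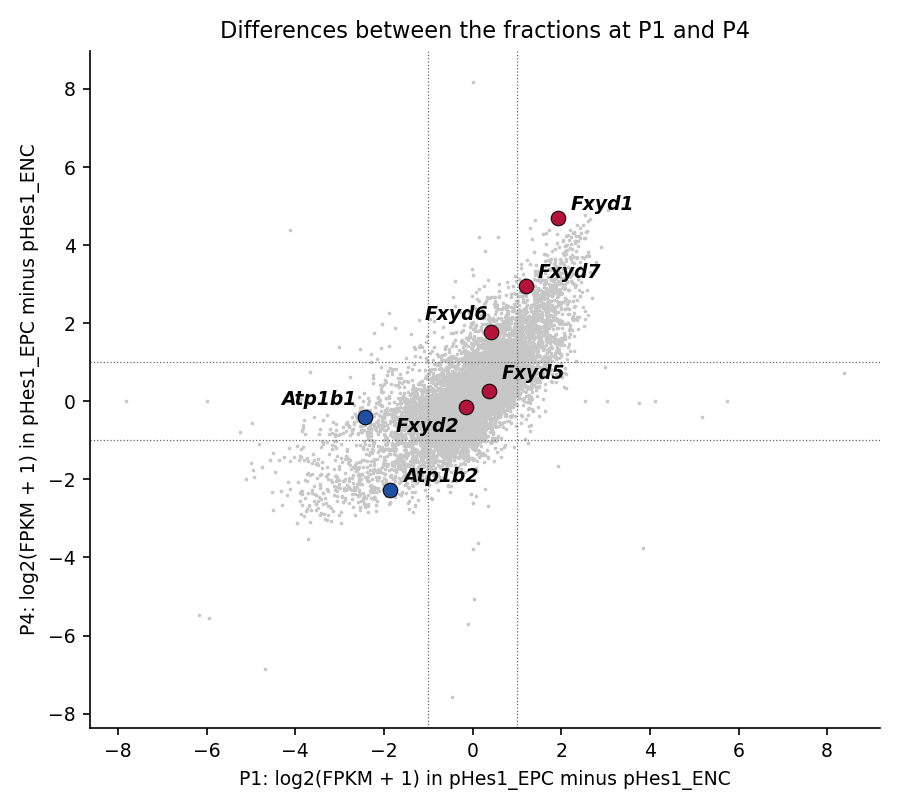
Each grey point is one of 12941 genes with at least 1 FPKM in a library, with its difference between fractions at P1 on the horizontal axis and at P4 on the vertical axis, both as log2(FPKM + 1) in pHes1_EPCs minus pHes1_ENCs. Dotted lines mark 2-fold, the Fxyd genes are red and the beta subunit genes blue. Fxyd1 lies at 1.93 and 4.69, Atp1b2 at -1.85 and -2.27, and Atp1b1 at -2.44 and -0.41.

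Promoter sequences are shown for 3 members that stood at different places in this comparison, Fxyd1 with the largest difference, Fxyd6 with the highest level among the Fxyd genes in pHes1_ENCs, and Atp1b1 on the opposite side. They are the 250 bases upstream of the start in RefSeq annotation of GRCm38.p6, where 4 of the 7 members have an entry. Capitals mark each match, on either strand, to the N-box CACNAG and the class C site CACGNG, which Hes proteins are known to bind, to the core TGGGAA of the Notch effector RBPJ, to the E-box CANNTG of proneural factors, to TAATCC of the photoreceptor factor Crx, to the SOX core ACAAAG and to the GC box GGGCGG. Class C sites and E-boxes can overlap, as in CACGTG.

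Fxyd1, chr7:31054854-31055103, minus strand: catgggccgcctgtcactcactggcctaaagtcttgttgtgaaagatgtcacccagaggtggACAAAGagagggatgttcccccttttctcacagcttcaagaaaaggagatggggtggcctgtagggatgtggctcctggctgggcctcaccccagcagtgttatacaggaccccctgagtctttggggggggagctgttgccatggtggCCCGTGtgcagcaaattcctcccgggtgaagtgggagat
Fxyd6, chr9:45369935-45370184, plus strand: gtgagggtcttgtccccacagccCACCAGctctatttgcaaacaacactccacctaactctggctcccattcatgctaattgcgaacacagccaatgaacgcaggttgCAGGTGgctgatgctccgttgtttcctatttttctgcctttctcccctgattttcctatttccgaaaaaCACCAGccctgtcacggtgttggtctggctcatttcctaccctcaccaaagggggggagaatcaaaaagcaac
Atp1b1, chr1:164458356-164458605, minus strand: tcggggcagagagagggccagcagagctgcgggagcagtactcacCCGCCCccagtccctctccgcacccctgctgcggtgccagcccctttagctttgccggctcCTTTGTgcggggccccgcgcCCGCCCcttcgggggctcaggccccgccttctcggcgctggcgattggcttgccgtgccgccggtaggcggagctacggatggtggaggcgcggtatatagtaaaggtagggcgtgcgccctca

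The Fxyd1 window held a SOX core at base -188 and a class C site at base -39, counted from the start with -1 as the base next to it. The Fxyd6 window held N-boxes at bases -227 and -73 and an E-box at base -142. The Atp1b1 window, with 70.4% G and C against 57.2% for Fxyd1 and 50.4% for Fxyd6, held GC boxes at bases -205 and -124 and a SOX core at base -144. Fxyd5, not printed, held a match to the RBPJ core and an N-box. Such matches are common, since of 32851 promoters of this length 36.7% held an N-box, 23.5% a class C site, 21.6% an RBPJ core, 66.2% an E-box, 6.25% the Crx letters, 16.5% a SOX core and 32.7% a GC box. They describe the letters of these windows and nothing about binding.

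Fxyd1 encodes phospholemman, the regulator through which protein kinases act on the pump in heart muscle. Its level was 8.76 FPKM in P1 pHes1_ENCs (interval 6.79 to 10.7) and 36.2 in P1 pHes1_EPCs (32.0 to 40.3), and 2.20 in P4 pHes1_ENCs (1.09 to 3.31) and 81.9 in P4 pHes1_EPCs (75.5 to 88.5). No interval of one fraction touched that of the other at either age. The pHes1_EPC level was 4.13 times the pHes1_ENC level at P1, with a range of 2.98 to 5.94 from the interval bounds, and 37.2 times at P4, with a range of 22.8 to 80.9. The P4 difference of 4.69 was the 5th highest of 21830 genes and the P1 difference of 1.93 the 238th highest. The wider gap at P4 had a part from each fraction, since Fxyd1 was 3.98 times lower at P4 than at P1 in pHes1_ENCs (2.05 to 9.82) and 2.27 times higher in pHes1_EPCs (1.87 to 2.76). The gain in pHes1_EPCs, 1.16 on the log2 scale, dropped below 2-fold under 3 other scalings of the libraries, with a lowest value of 0.82.

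Fxyd7 encodes a regulator known mainly from brain. Its levels were low, at 1.99 FPKM in P1 pHes1_ENCs (0.966 to 2.36), 5.85 in P1 pHes1_EPCs (3.32 to 5.90), 0.165 in P4 pHes1_ENCs (0 to 0.290) and 8.01 in P4 pHes1_EPCs (interval 4.71 to 7.84, just under the value itself). It had the same order of libraries as Fxyd1, highest in P4 pHes1_EPCs and lowest in P4 pHes1_ENCs. The pHes1_EPC level was 2.94 times the pHes1_ENC level at P1 (1.41 to 6.11). At P4 the lower bound in pHes1_EPCs was 16.3 times the upper bound in pHes1_ENCs, and no upper limit can be given because the pHes1_ENC interval reached 0. From P1 to P4 the log2 change was -1.36 in pHes1_ENCs and 0.40 in pHes1_EPCs, and in pHes1_EPCs the intervals of the 2 ages overlapped.

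Fxyd6 encodes phosphohippolin, a regulator known from brain and inner ear. It was the most abundant Fxyd gene in both libraries of pHes1_ENCs and in P1 pHes1_EPCs, at 39.8 FPKM in P1 pHes1_ENCs, 53.4 in P1 pHes1_EPCs, 10.2 in P4 pHes1_ENCs and 37.0 in P4 pHes1_EPCs. The P4 pHes1_ENC library thus stood apart from the other three. The pHes1_EPC level was 1.34 times the pHes1_ENC level at P1 (1.19 to 1.503), under 2-fold, and 3.63 times at P4 (2.97 to 4.33). Unlike Fxyd1, it was lower at P4 than at P1 in both fractions, by 1.87 on the log2 scale in pHes1_ENCs and by 0.52 in pHes1_EPCs, so the wider gap at P4 came with a larger drop in pHes1_ENCs. Except in P4 pHes1_ENCs, its levels lay above their own intervals, as in P1 pHes1_EPCs, at 53.4 FPKM against 45.7 to 50.9. The ratio ranges of Fxyd6 thus come partly from bounds that leave out the levels themselves.

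Fxyd5, which encodes dysadherin, a regulator also known for effects on cell adhesion, was at 0.314 FPKM in P1 pHes1_ENCs, 0.703 in P1 pHes1_EPCs, 0.193 in P4 pHes1_ENCs and 0.426 in P4 pHes1_EPCs. The intervals of the fractions overlapped at both ages, and a difference was not detectable at this depth. Fxyd2, the gamma subunit of the kidney pump, was at 0.102 and 0.110 FPKM in P1 and P4 pHes1_ENCs and was listed at 0 in both pHes1_EPC libraries. Its intervals reached 0 in all 4 libraries, and no fold is given.

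Atp1b1 encodes the beta subunit with the widest tissue distribution. Its level was 17.0 FPKM in P1 pHes1_ENCs (15.8 to 18.3), 2.34 in P1 pHes1_EPCs (1.94 to 2.73), 4.92 in P4 pHes1_ENCs (4.32 to 5.54) and 3.47 in P4 pHes1_EPCs (2.95 to 3.99). The P1 pHes1_ENC library stood high, and the others lay between 2.34 and 4.92 FPKM with intervals that did not overlap. The pHes1_ENC level was 7.30 times the pHes1_EPC level at P1 (5.79 to 9.42), but 1.42 times at P4 (1.08 to 1.88). Between the ages it was 3.47 times lower at P4 in pHes1_ENCs (2.85 to 4.24) and 1.49 times higher in pHes1_EPCs (1.08 to 2.06). Markers of amacrine and of ganglion cells also had their highest sums in P1 pHes1_ENCs. Those of horizontal cells summed to 27.3 FPKM there and to 24.4 in P1 pHes1_EPCs. The 4 amacrine markers found of 6 listed summed to 81.0, 3.52, 70.9 and 12.0 FPKM in the order P1 pHes1_ENC, P1 pHes1_EPC, P4 pHes1_ENC and P4 pHes1_EPC, and 4 of 4 were past 2-fold lower in pHes1_EPCs at P1 and 3 of 4 at P4. The glycine transporter gene Slc6a9 made up 62.6 FPKM of the P4 pHes1_ENC sum. The 8 ganglion cell markers summed to 40.4, 22.4, 8.74 and 7.06 FPKM, and 2 of 8 were past 2-fold lower in pHes1_EPCs at P1. The part of these cells in the level of Atp1b1 was not tested.

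Atp1b2 encodes the beta subunit first described on glia as an adhesion molecule, and is also the beta subunit of rod photoreceptors. It was by far the most abundant member, at 216 FPKM in P1 pHes1_ENCs, 59.1 in P1 pHes1_EPCs, 674 in P4 pHes1_ENCs and 139 in P4 pHes1_EPCs. By level it ranked 109th, 943rd, 23rd and 428th of 21830 genes in these libraries. Each fraction was higher at P4 than at P1, and pHes1_ENCs were higher than pHes1_EPCs at each age. The pHes1_ENC level was 3.66 times the pHes1_EPC level at P1 (3.42 to 3.87) and 4.86 times at P4 (4.66 to 5.02). From P1 to P4 it was 3.12 times higher in pHes1_ENCs (3.002 to 3.21) and 2.35 times higher in pHes1_EPCs (2.19 to 2.49), and the latter was under 2-fold when libraries were set to the same total or quantile normalized, with a lowest log2 change of 0.81. Its 4 values lay above their own intervals, as in P4 pHes1_ENCs, at 674 FPKM against 623 to 638. The ratio ranges of Atp1b2 thus come from bounds that leave out the levels themselves. The summed rod markers given above were likewise highest in P4 pHes1_ENCs, at 4123 FPKM, and were 780 FPKM in P4 pHes1_EPCs against 43.6 in P1 pHes1_EPCs. The part of rod transcripts in the Atp1b2 level of pHes1_EPCs was not tested.

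Over the 2 ages, 4 of the 7 members were past 2-fold lower at P4 in pHes1_ENCs, Fxyd1, Fxyd6, Fxyd7 and Atp1b1, where 5.94% of all genes were, and Atp1b2 alone was past 2-fold higher, where 2.77% were. In pHes1_EPCs, Fxyd1 and Atp1b2 were past 2-fold higher at P4, where 4.17% of all genes were, and 0 members were past 2-fold lower, where 2.57% were. The comparisons between fractions and between ages share their libraries, so they are not independent views of one gene.

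Set against the other genes of their class, the members made up different parts of the pump transcripts in the fractions. Atp1b2 held 82.1% of the summed beta subunit FPKM in P1 pHes1_ENCs and 97.8% in P4 pHes1_ENCs, against 41.2% and 64.8% in pHes1_EPCs. The rest in pHes1_EPCs was nearly all Atp1b3, a further beta subunit gene, with 57.2% at P1 and 33.5% at P4. Atp1b1 held 6.47% in P1 pHes1_ENCs and at most 1.63% in the other libraries. Atp1b3 itself was at 30.1 FPKM in P1 pHes1_ENCs, 82.0 in P1 pHes1_EPCs, 10.2 in P4 pHes1_ENCs and 71.8 in P4 pHes1_EPCs, with differences between fractions of 1.41 at P1 and 2.70 at P4, opposite in sign to both beta members.

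Among the Fxyd genes, Fxyd6 held 77.2% of the summed FPKM in pHes1_ENCs at both ages, while in pHes1_EPCs it held 54.7% at P1 and 28.0% at P4. Fxyd1 held 17.0% and 16.7% in P1 and P4 pHes1_ENCs, and 37.1% and 62.0% in P1 and P4 pHes1_EPCs, so the leading Fxyd transcript of P4 pHes1_EPCs was Fxyd1. The sum over the 7 Fxyd genes was 51.5 FPKM in P1 pHes1_ENCs, 97.6 in P1 pHes1_EPCs, 13.2 in P4 pHes1_ENCs and 132 in P4 pHes1_EPCs.

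**Figure D3:**
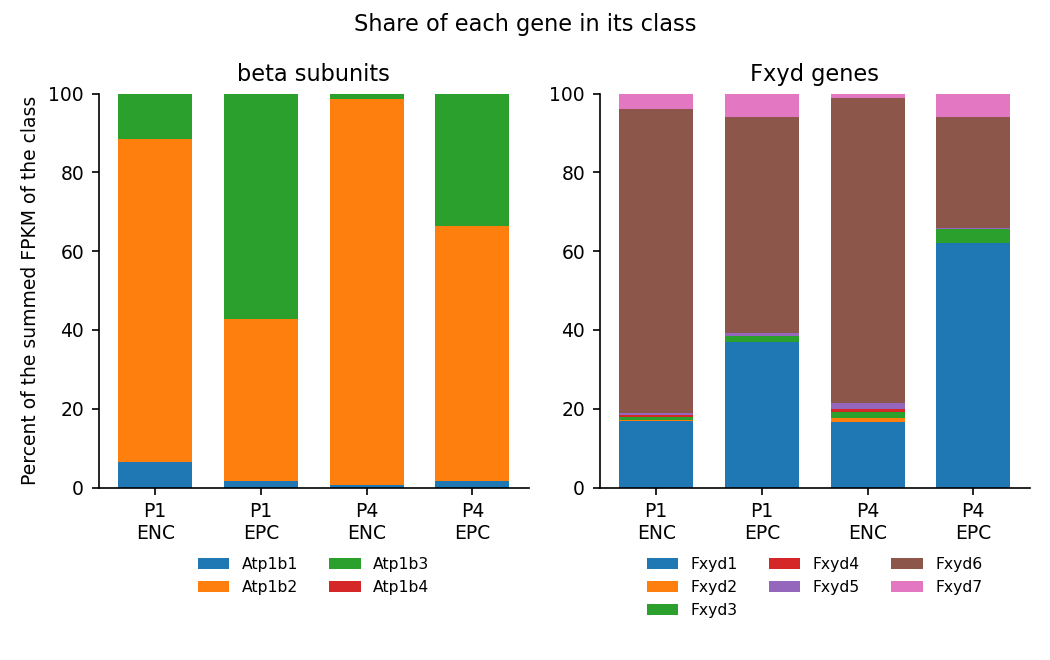
Each bar is one library and splits the summed FPKM of the beta subunit genes or the Fxyd genes into the percent held by each gene, from 0 to 100. Bars of pHes1_ENCs are mostly Atp1b2 and Fxyd6, and bars of pHes1_EPCs hold more Atp1b3 and Fxyd1. The Fxyd1 share of P4 pHes1_EPCs is 62.0%.

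Other genes linked to the pump were taken as fixed lists. The 4 Nkain genes encode membrane proteins that interact with the beta subunit. Of these 4, 1 was past 2-fold lower in pHes1_EPCs at P1, where 6.79% of all genes were, and 1 higher at P4, where 9.85% were. Nkain1 was at 57.9, 9.01, 19.8 and 14.7 FPKM in the order P1 pHes1_ENC, P1 pHes1_EPC, P4 pHes1_ENC and P4 pHes1_EPC, used below as well, and Nkain4 at 29.1, 42.4, 9.78 and 60.0. The 3 proton-potassium pump genes were near 0, with a summed level of at most 0.421 FPKM in any library.

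Of 13 transporter genes listed as users of the sodium gradient, 3 were past 2-fold higher and 4 lower in pHes1_EPCs at P1. Of all genes, 6.1% were higher and 6.79% lower at P1. At P4, 4 of the 13 were higher and 3 lower, beside 9.85% and 5.42% of all genes. The list shares Slc1a3 with the Müller glia markers and Slc6a9 with the amacrine markers. Slc12a5, counted as lower at both ages with differences of -2.54 and -2.39, encodes a potassium-chloride cotransporter that carries no sodium. The median difference of the 13 genes was 0.13 at P1 and -0.15 at P4, beside 0.02 and 0.15 over the 12941 genes with at least 1 FPKM in a library. Slc1a3, the glutamate transporter of Müller glia, was at 34.0, 177, 15.1 and 231 FPKM, and Slc1a2, the glutamate transporter of neurons in the retina, at 33.6, 1.66, 56.0 and 10.2 FPKM. The list therefore held genes on both sides, and the GABA transporter gene Slc6a11 had a difference of 0.16 at P1 and 2.57 at P4.

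**Figure D4:**
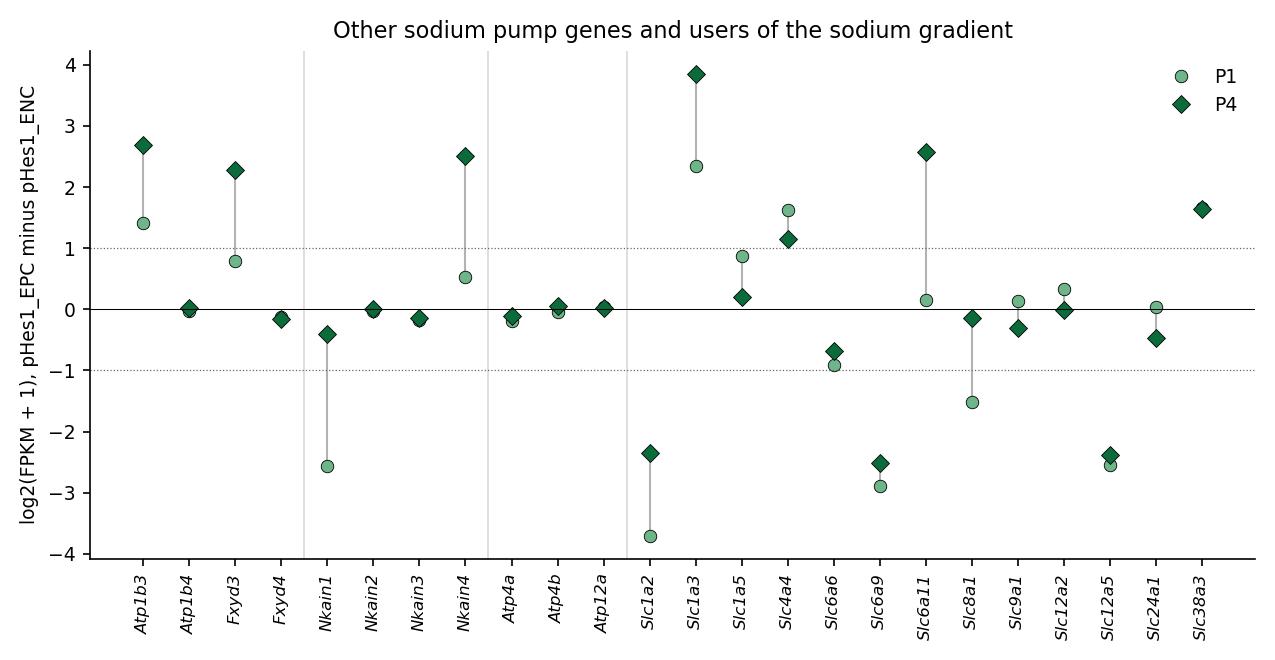
The plot gives the difference between fractions, log2(FPKM + 1) in pHes1_EPCs minus pHes1_ENCs, for the other pump genes and transporter genes, with a circle for P1 and a diamond for P4. Grey vertical lines separate the lists and dotted lines mark 2-fold. Atp1b3 lies at 1.41 and 2.70.

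The Fxyd members lie in 2 clusters of the genome. On chromosome 7 of mm9, the build of the files, Fxyd5 (chr7:31817742-31827341), Fxyd7 (chr7:31827534-31836473) and Fxyd1 (chr7:31836697-31840675) follow each other on the minus strand with gaps of 192 and 223 bases. Lgi4, which encodes a secreted protein of myelinating glia, follows on the plus strand, and Fxyd3 on the minus strand overlaps it by 401 bases, over a span of 43975 bases in all. Of these 5 genes, 3 at P1 and 4 at P4 were past 2-fold higher in pHes1_EPCs, beside 6.1% and 9.85% of all genes, and 0 were past 2-fold lower. Fxyd1 and Fxyd7, already counted above, are among them at both ages. Lgi4 was at 12.4 FPKM in P1 pHes1_ENCs, 35.0 in P1 pHes1_EPCs, 3.46 in P4 pHes1_ENCs and 49.5 in P4 pHes1_EPCs, and Fxyd3 at 0.391, 1.40, 0.216 and 4.88. Fxyd5, at one end, was under 2-fold at both ages, with differences of 0.37 and 0.26, and Fxyd3 was under 2-fold at P1, with a difference of 0.78 and overlapping intervals. The protocol does not mark the strand of a read, so reads in the overlap of Lgi4 and Fxyd3, or running past the end of a gene into the next, may not be told apart. The printed Fxyd1 window matches mm9 at chr7:31839873-31840122, within the longer Fxyd1 gene of the files.

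**Figure D5:**
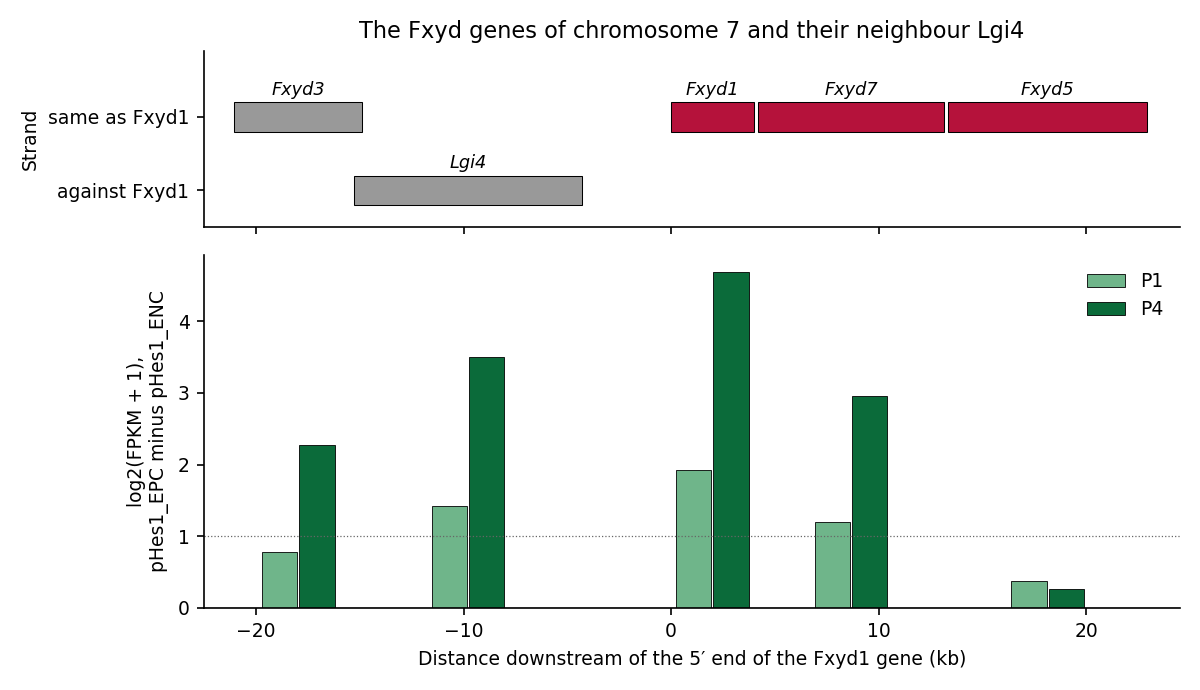
The upper panel draws the 5 genes of the chromosome 7 cluster to scale in kb downstream of the 5′ end of Fxyd1, by strand, with members in red. The lower panel gives the difference between fractions, log2(FPKM + 1) in pHes1_EPCs minus pHes1_ENCs, at P1 (light bars) and P4 (dark bars). The bars are tallest at Fxyd1, 1.93 and 4.69, and lowest at Fxyd5, 0.37 and 0.26.

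On chromosome 9, Fxyd6 (chr9:45178268-45204242) and Fxyd2 (chr9:45207792-45218361) lie 3549 bases apart on the plus strand, and the pair differed widely in level, since Fxyd6 was at 10.2 FPKM or more in every library and Fxyd2 at 0.110 or less. Their neighbour 4833428L15Rik, on the minus strand 6347 bases from Fxyd2, was at most at 0.186 FPKM in any library. Atp1b1 (chr1:166367398-166388486) and Atp1b2 (chr11:69413252-69419462) lie alone on other chromosomes.

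Among 12941 genes, those whose centred log2(FPKM + 1) over the 4 libraries lay nearest to a member by Euclidean distance were as follows, as a description of 4 libraries. Fxyd1 was nearest to E130114P18Rik (distance 0.34), Gpx8 (0.41) and Gstm1 (0.42). Fxyd6 was nearest to Scrn1 (0.07), Smad3 (0.12) and Rsph1 (0.22), and Fxyd7 to Mdk (0.17), Megf10 (0.19) and Tril (0.20). Atp1b1 was nearest to Nkain1 (0.19), Cdk5r1 (0.20) and Ndrg4 (0.22), and Atp1b2 to Abcg4 (0.16), Abhd14b (0.18) and Kank1 (0.18). Between members, Fxyd6 and Fxyd7 were closest, at 1.23, then Fxyd1 and Fxyd7, at 1.36, and Fxyd1 and Atp1b2 were farthest apart, at 5.84. The pseudocount of 1 understates the P4 difference of Fxyd7, which was 2.95 with it and 4.94 with 0.1. With 0.1, that of Fxyd1 was 5.15 and that of Fxyd6 1.85. The distances were not taken with 0.1, so the order of the close pairs holds for the pseudocount of 1 only. Fxyd2 and Fxyd5 were not placed because of their low levels.

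Marker transcripts of further cell types were summed as well, and some of these sums differed between the fractions. The 5 pigment epithelium markers summed to 2.69 FPKM in P1 pHes1_ENCs, 3.12 in P1 pHes1_EPCs, 3.96 in P4 pHes1_ENCs and 76.4 in P4 pHes1_EPCs, with 4 of 5 past 2-fold higher in P4 pHes1_EPCs and the defining Rpe65 at 0.422 FPKM there. The 5 erythroid markers summed to 137, 0.595, 334 and 5.83 FPKM. The 5 microglia markers summed to at most 8.15 FPKM and the 4 pericyte markers to at most 5.52. The endothelial markers Pecam1, Cdh5 and Tie1 were at most 0.142 FPKM each. Cldn5 was at 16.3, 3.49, 2.59 and 4.06 FPKM, past 2-fold lower in P1 pHes1_EPCs, while Kdr, which progenitors also express, was at 46.9, 209, 12.0 and 189, and the 5 summed to 63.4, 212, 14.8 and 193 FPKM. The 4 astrocyte markers were at most 1.21 FPKM each and summed to 1.23, 1.20, 3.37 and 4.14 FPKM. The 4 horizontal cell markers summed to 27.3, 24.4, 15.3 and 19.3 FPKM, of which Prox1 made up 17.6, 23.2, 10.8 and 18.1. Of these 4, 2 were past 2-fold lower in pHes1_EPCs at P1, Onecut1 and Onecut2, and 1 at P4, Onecut1. The part of these cells in the levels of the Fxyd genes was not tested.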

How the data were processed

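Total RNA of sorted retinal cells was reverse transcribed with random primers and sequenced as 36-base single-end reads, 1 library per group. Per the labels and the study's methods, the authors aligned reads to mm9 with TopHat 2.0.8b, allowing up to 50 positions per read, and deposited gene-level FPKM values with 95% intervals from Cufflinks 2.1.1 at default options. Multi-mapped reads can therefore be shared between related genes.

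From each table of 23021 gene lines, 794 small RNA lines were left out and the highest line of a symbol was kept, leaving 21830 genes. Differences were taken on log2(FPKM + 1), with 2-fold as the threshold. Ratio ranges set the lower bound of one interval over the upper bound of the other. The members, the marker lists and the other gene lists were chosen with earlier results of these data known. Named genes were all members, the reported genes of the lists on pump and transport genes (some listed genes are not reported here), neighbours within 20000 bases of the Fxyd clusters and the 3 nearest genes of each member by Euclidean distance. Lgi4, which overlaps Fxyd3, and 4833428L15Rik come from the neighbours. Positions of genes are those of the files. Alternatives were other pseudocounts, scalings, filters and call rules, and the steps were tested on simulated data. Scripts ran in Python 3.11.15 with numpy 2.4.6, pandas 2.3.3 and matplotlib 3.10.9.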

Additional observations from a re-analysis of the deposited data

Results flagged for a closer look

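Of the 11 Fxyd and beta subunit genes, 5 had changes of opposite sign from P1 to P4 in the 2 fractions, with a higher value at P4 in pHes1_EPCs and a lower one in pHes1_ENCs, as 19.3% of all 21830 genes had. Of the 12941 genes with at least 1 FPKM in a library, 23.8% had such changes. With the intervals of the 2 ages apart in both fractions as well, the count was 2 of 11, against 4.67% of all genes and 7.69% of the 12941. The differences between these changes were not tested, as each group had 1 library. On the log2(FPKM + 1) scale the change in pHes1_EPCs minus that in pHes1_ENCs was 2.77 for Fxyd1, 2.03 for Atp1b1, 1.75 for Fxyd7 and 1.49 for Fxyd3. It was 0.041 for Atp1b4. For Fxyd1 and Atp1b1 the Cufflinks intervals of the 2 ages did not overlap in either fraction. For Fxyd7 they overlapped in pHes1_EPCs, for Fxyd3 in pHes1_ENCs, and for Atp1b4, at most 0.0189 FPKM in any library, in both.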

How the results depend on the processing

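No paired analysis was possible because each group had 1 library. Each member's differences kept their sign under every alternative scaling and pseudocount tried, apart from Fxyd2 in pHes1_EPCs, at 0 at both ages. Setting all libraries to the same total moved the median difference of expressed genes at P4 from 0.15 to -0.11, median-of-ratios scaling to 0.00 and quantile normalization to -0.03. At P4 the share of genes past 2-fold that were higher in pHes1_EPCs was 64.5% as deposited, 46.2% at the same total, 54.7% after median-of-ratios scaling and 49.8% after quantile normalization. From P1 to P4 in pHes1_EPCs the share higher at P4 was 61.9%, 35.0%, 42.2% and 44.3%, and in pHes1_ENCs it was 31.8%, 27.7%, 28.6% and 42.8% in the same order. The cause of the shifts below was not tested.

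At the same total, the differences at P4 were 1.45 for Fxyd6, -0.66 for Atp1b1 and -2.59 for Atp1b2, and that of Atp1b2 at P1 was -1.96. In pHes1_EPCs 497 genes were then past 2-fold higher at P4, 921 lower, and 0 members higher. Median-of-ratios scaling gave -2.45 for Atp1b2 at P4, 587 genes higher at P4 in pHes1_EPCs and 1 member, Atp1b2. Quantile normalization gave, at P4, 1.55 for Fxyd6, -0.65 for Atp1b1 and -2.52 for Atp1b2, and -2.14 for Atp1b2 at P1, with 593 genes and 0 members higher at P4 in pHes1_EPCs. The Atp1b2 share of beta subunit FPKM was then 84.5% in P1 pHes1_ENCs, 97.5% in P4 pHes1_ENCs and 63.1% in P4 pHes1_EPCs.

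With a pseudocount of 0.1 the differences were -1.01 at P1 and -1.07 at P4 for Fxyd2, 0.96 and 0.84 for Fxyd5, 4.94 at P4 for Fxyd7 and -2.82 at P1 for Atp1b1. Without a pseudocount they were 1.16 and 1.14 for Fxyd5, 5.60 at P4 for Fxyd7 and -2.87 at P1 for Atp1b1. With 0.1, 2 members were past 2-fold lower in pHes1_EPCs at P4, Atp1b2 and Fxyd2, and by intervals 2, Atp1b2 and Atp1b1. With 0.1, the counts of all genes in pHes1_EPCs against pHes1_ENCs were 2057 higher and 2470 lower at P1, and 1963 lower at P4. At P4 against P1, the counts with 0.1 were 1010 higher and 2502 lower in pHes1_ENCs, and 1714 higher and 1162 lower in pHes1_EPCs. By a plain ratio above 2 the 8 counts were 3008 and 3816 at P1, 4390 and 3182 at P4, 1899 and 4027 over age in pHes1_ENCs, and 3020 and 2227 in pHes1_EPCs. Summing the lines of a symbol, a minimum of 1 FPKM and keeping genes of status OK moved no count or difference past these limits. Depth limits Fxyd2, Fxyd5 and Fxyd7 most, and 6 of the 28 member intervals reached 0.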
